A study of Homo sapiens with 4 samples.

Results

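The 2 control libraries of MCF10A cells, out of 4 libraries in the series, were taken as a description of the untreated transcriptome. They were chosen by their labels alone, as the libraries whose labels name a scramble shRNA and no TGF-β1. MCF10A is an established line of human mammary epithelial cells that is immortal but forms no tumours. A scramble shRNA is a hairpin designed against no known transcript, so these cells are controls and not parental cells. The other 2 libraries of the series were taken after 1.5 h with TGF-β1 at 5 ng/ml and were not used here. All of the cells grew in DMEM-F12 with 20 ng/ml EGF, 100 ng/ml cholera toxin, 10 μg/ml insulin, 500 ng/ml hydrocortisone and 5% horse serum. These additives are present in the untreated cells as well, so the levels are those of cells kept with these factors. The libraries came from total RNA depleted of ribosomal RNA, per the labels' protocols, although another label field calls the molecule polyA RNA. A protocol shared by the series also mentions overexpression of PHF8, a histone demethylase, and no label assigns it to a library.

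Mammary ducts are built of an inner luminal layer and an outer basal layer that rests on a basement membrane. Basal cells hold on to that membrane with hemidesmosomes, in which the integrin α6β4 binds laminin-332, and they build their cytoskeleton from keratins 5 and 14. The transcription factor p63 is the classical regulator of the basal state. In culture, mammary epithelial cells depend on EGF, and cholera toxin raises their cAMP by locking the G protein subunit Gsα in its active form.

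Levels are given in transcripts per 1000000 transcripts (TPM), a measure corrected for transcript length and summed over the transcripts of a gene, always for control replicate 1 first and control replicate 2 second. A gene is described as expressed at 1 TPM or more in both libraries and as silent at 0.1 TPM or less in both. With 1 group of 2 libraries there is nothing to compare, so no test was made, and the spread between the libraries is the only error given. The libraries held 40792300 and 36693330 estimated read counts. Of 34500 genes measured, 12107 were expressed and 15610 were silent, and 12536 of these had no counts in either library. Of the 19652 protein-coding genes, 11561 (58.8%) were expressed, 4444 (22.6%) were silent, and 3647 lay between. Each count of list members below is to be read against these shares.

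The libraries followed each other closely over most genes and differed in some groups. Over the 12107 expressed genes, Pearson's r of the log2 levels was 0.976 and Spearman's rho 0.975. These are correlations across genes, which are not independent replicates. The levels lay over 2-fold apart for 4.64% of these genes, 234 of them higher in replicate 2 and 328 higher in replicate 1. PHF8 itself was at 7.05 and 1.08 TPM, from 803 and 142 counts, so replicate 1 was far higher. Replicate 1 was also higher in the summed levels of matrix, cytoskeletal, histone and proliferation genes, and replicate 2 in those of ribosomal protein genes. The cause of these differences was not tested, and both values are therefore printed for each gene.

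**Figure D1:**
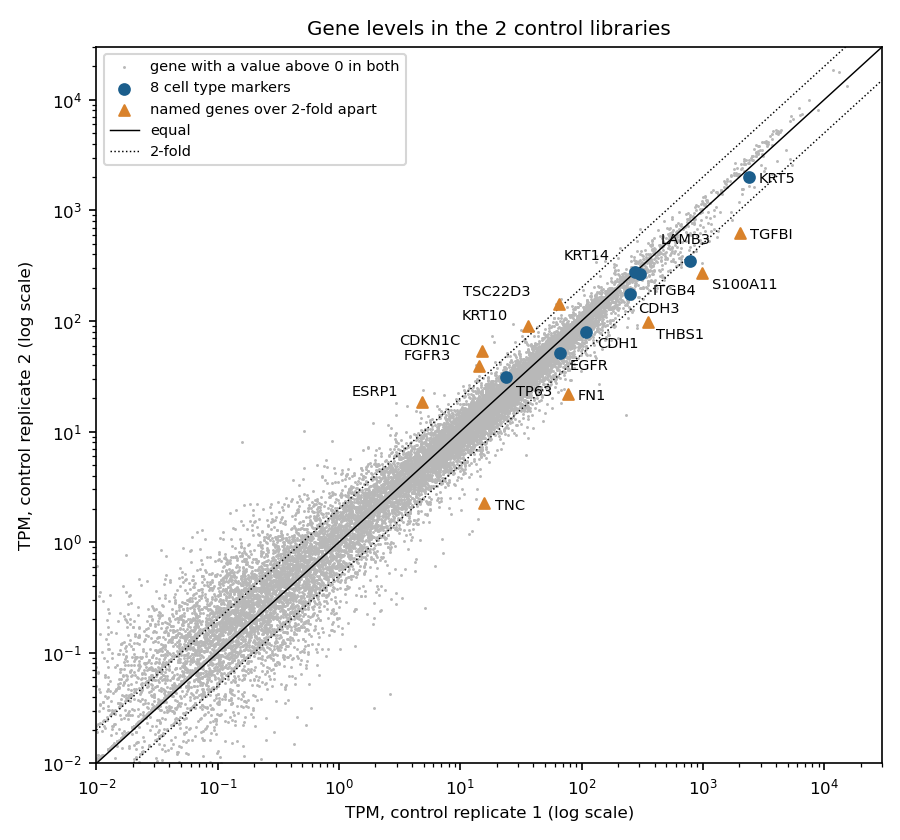
TPM of each gene in control replicate 1 (x axis) against control replicate 2 (y axis), both on log scales. Grey points are genes with a value above 0 in both libraries, blue circles the 8 cell type markers, orange triangles named genes over 2-fold apart, the solid line equal levels and the dotted lines 2-fold differences. All 8 markers lie above 20 TPM, and TNC lies farthest below the line of equal levels among the labelled genes.

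Markers of the labelled cell type are described first. All 8 markers of basal and epithelial identity were expressed in both libraries, against 58.8% of all protein-coding genes. They were chosen with earlier results of these data known, so this is a description and no check of the cell type. KRT5 (chr12:52514575-52520687), the basal type II keratin, was highest at 2385 and 2023 TPM, a mean of 2204 ± 256 (SD, n = 2). LAMB3 (chr1:209614870-209652466), the β3 chain of laminin-332, stood at 781 and 348 TPM, over 2-fold higher in replicate 1. ITGB4 (chr17:75721328-75757818), its receptor subunit in the hemidesmosome, was at 303 and 266 TPM. KRT14 (chr17:41582279-41586921), the keratin that pairs with KRT5, was at 275 and 277 TPM and thus about equal in the libraries, though far below KRT5 in both. CDH3 (chr16:68636189-68722616), P-cadherin of the basal layer, was at 249 and 175 TPM, and CDH1 (chr16:68737225-68835548), E-cadherin, was at 109.6 and 80 TPM. Both cadherins were higher in replicate 1, and CDH3 exceeded CDH1 in each library. Of the CDH3 level, however, only 45.4% and 47.4% lay on transcripts of protein-coding type, chiefly CDH3-202 at 103.8 and 78 TPM, and 45.3% in each library lay on CDH3-203, a transcript annotated for nonsense-mediated decay. EGFR (chr7:55019021-55211628), the receptor for the EGF in the medium, was at 65.9 and 51 TPM. TP63 (chr3:189631416-189897279), which encodes p63, was the lowest of the 8 at 23.6 and 30.9 TPM. In the order of mean levels, ITGB4 and KRT14 were neighbours whose ranges overlapped, while the ranges of KRT14 and CDH3 did not.

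The wider basal list was expressed throughout. All 17 of its genes reached 1 TPM in both libraries, against 58.8% of all protein-coding genes, and 15 had a mean of 100 TPM or more. The list was drawn up with earlier results of these data known, so this is a description and no check of basal identity. S100A2, a calcium-binding protein of basal keratinocytes, led the list at 15537 and 13240.4 TPM. KRT17, a keratin of basal and wounded epithelium, followed at 3752 and 2122 TPM, higher in replicate 1. LAMA3, the α3 chain of laminin-332, was at 480.4 and 234 TPM, over 2-fold higher in replicate 1. COL17A1, the transmembrane collagen of hemidesmosomes, was at 274 and 269 TPM, and SFN, stratifin, an epithelial regulator of the cell cycle, was at 584 and 429.8 TPM.

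Genes that define the contractile side of the myoepithelial state were low. Of 11 genes of that list, 5 (45.5%) were expressed and none was silent, against 58.8% and 22.6% of all protein-coding genes. The expressed ones were led by general cytoskeletal genes. TPM2, β-tropomyosin, was at 209 and 219 TPM, and CALD1, caldesmon, was at 101 and 103 TPM. ACTA2, the smooth muscle actin that defines contractile cells, was only at 7.44 and 6.4 TPM. Other defining genes stayed under 1 TPM in both libraries. MYH11, the smooth muscle myosin heavy chain, was at 0.354 and 0.579 TPM. CNN1, calponin, was at 0.285 and 0.695 TPM, and OXTR, the oxytocin receptor, at 0.258 and 0.3 TPM.

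Of 25 luminal genes, 15 (60%) were expressed and 7 (28%) silent, shares close to the 58.8% and 22.6% of all protein-coding genes. The simple keratins carried most of the summed level. KRT7 was at 3232 and 2399 TPM. KRT18, the partner of KRT8, was at 454 and 348 TPM, and KRT8 at 236 and 146 TPM. Each was higher in replicate 1. KRT19, another luminal keratin, was at 0.242 and 0.283 TPM, far below its relatives. EPCAM, the epithelial adhesion molecule, was at 46.3 and 42.2 TPM. The hormone-responsive part was low: ESR1, the oestrogen receptor, was at 1.37 and 1.26 TPM, from 250 and 219 counts. PGR, the progesterone receptor, had 1 and 0 counts. GATA3 and FOXA1, luminal transcription factors, were at 1.35 and 2.87 TPM and 7.47 and 6.15 TPM. KIT, the receptor of luminal progenitors, had no counts in either library, which allows up to 0.0557 TPM at 3 counts.

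Milk and secretory genes were mostly off: 7 of 12 genes were silent, among them the caseins CSN1S1, CSN2 and CSN3 and α-lactalbumin (LALBA), all without counts, and XDH alone was expressed, at 19.1 and 16 TPM.

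Markers of other cell types were low, with exceptions. Of 10 fibroblast markers, 3 were expressed: FAP at 30.8 and 31.8 TPM, DCN at 17.7 and 17.2 TPM and COL1A1 at 2.96 and 1.99 TPM. The fibrillar collagen genes COL1A2 and COL3A1, also on that list, were at 0.101 and 0.0344 TPM and 0 and 0.0191 TPM. The summed level of the list was 52.6 and 51.7 TPM. Of 12 endothelial and blood markers, only CD14, a co-receptor for bacterial lipopolysaccharide, was expressed, at 25.7 and 35.9 TPM, while PTPRC (CD45) was at 0.313 and 0.387 TPM and CD3E, of T cells, had no counts. Of 18 markers of fat, muscle, neurons, liver, pancreas and melanocytes, MITF alone was expressed, at 5.18 and 5.73 TPM, and 11 were silent.

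**Figure D2:**
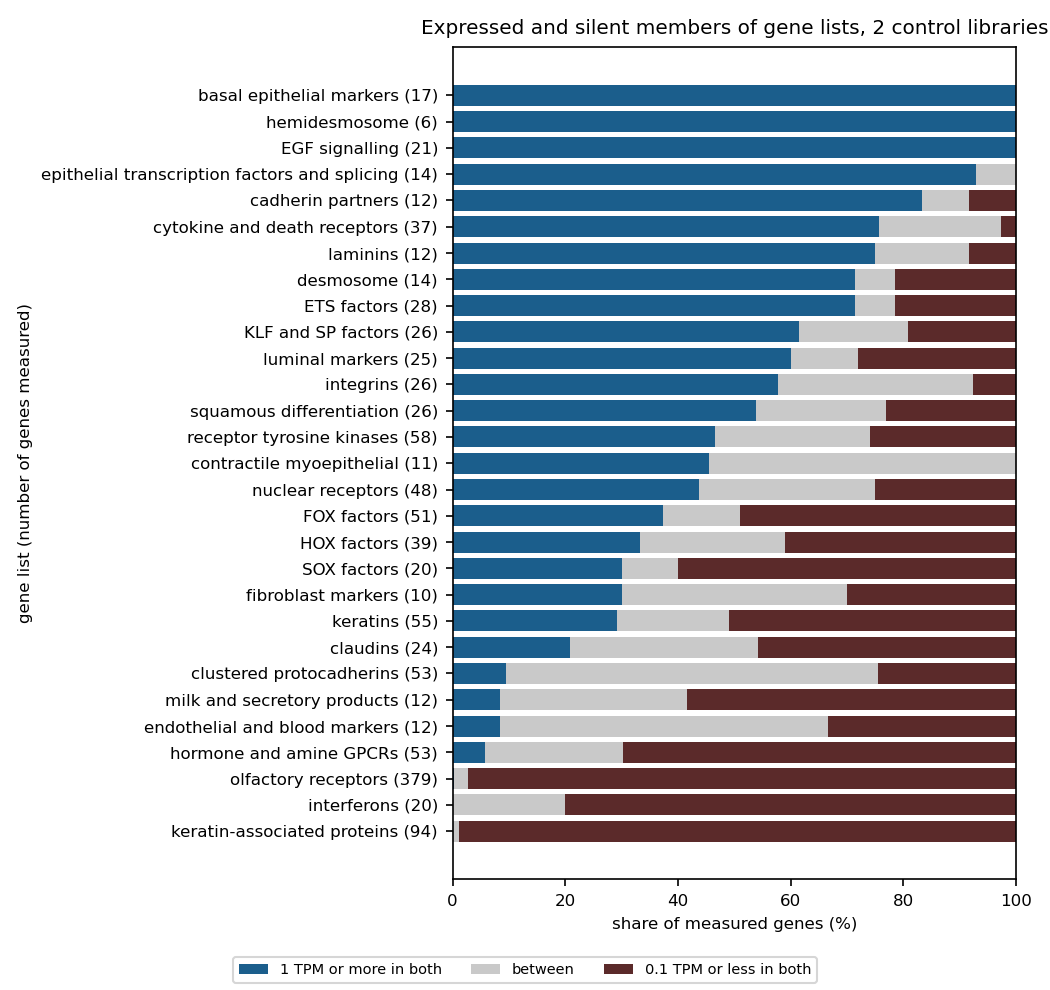
Share of the measured genes of each list (x axis, percent) that were expressed at 1 TPM or more in both control libraries (blue), silent at 0.1 TPM or less in both (dark red) or between (grey). The number of genes measured stands beside each list. Basal, hemidesmosomal and EGF pathway lists are expressed throughout, and of 94 keratin-associated protein genes none is. The lists were drawn up with earlier results of these data known. Of all protein-coding genes, 58.8% were expressed and 22.6% silent.

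The most abundant genes made proteins of the translation machinery and of the cytoskeleton. The 10 most abundant genes held 8.71% and 10.5% of all TPM, the 100 most abundant 34.1% and 38.5%, and the 1000 most abundant 66.1% and 67.9%. Of the 100, 64 encoded cytosolic ribosomal proteins, 5 keratins and 4 actin cytoskeleton proteins. A further 6 were on a list of translation factors that also holds related genes such as TPT1. Ribosomal protein genes as a group took 20.5% and 24.6% of TPM, and 85 of 89 were expressed. RPL41 was at 6206 and 8432 TPM and RPS27 at 6620.2 and 7462 TPM, both higher in replicate 2. EEF1A1, the elongation factor that brings tRNA to the ribosome, was at 11826 and 18709.7 TPM. EEF2, which moves the ribosome along, was at 1848 and 2669 TPM. TPT1, translationally controlled tumour protein, was at 5299 and 7192 TPM, and NPM1, the nucleolar chaperone nucleophosmin, was at 4169 and 5236 TPM. All 4 were higher in replicate 2.

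Among genes outside the ribosome, S100A2 (chr1:153561108-153567890) was at 15537 and 13240.4 TPM and its neighbour S100A6 at 4349 and 5136 TPM. TMSB10, a thymosin that holds actin monomers, was at 8908 and 8121 TPM, and ACTB, β-actin, was at 5414 and 2566 TPM, over 2-fold higher in replicate 1. GAPDH and ENO1, enzymes of glycolysis, were at 6352 and 7288 TPM and 3026 and 2565 TPM. ANXA2, a membrane-binding annexin and partner of S100A10, was at 4080.4 and 2803 TPM. MT2A, a metallothionein that binds zinc and copper, was at 5209 and 2892 TPM, higher in replicate 1. GSTP1, a glutathione transferase, was at 2196 and 2918 TPM, and FTH1, the ferritin heavy chain, at 2170.0 and 2626 TPM, both higher in replicate 2. SLPI, a secreted inhibitor of leukocyte proteases, was at 2111 and 1553 TPM. Mitochondrially encoded mRNAs took 0.365% and 0.4% of TPM over 13 genes, led by MT-CO1 at 1078 and 1186 TPM, a subunit of cytochrome oxidase.

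**Figure D3:**
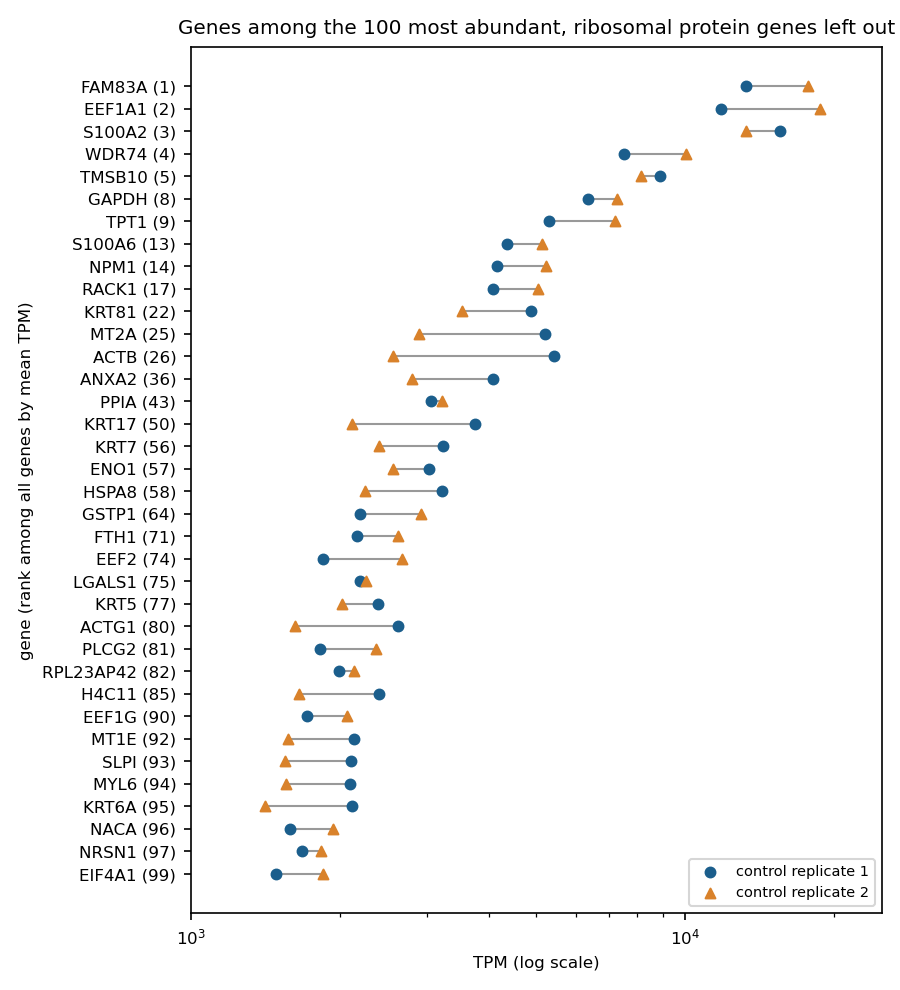
TPM (x axis, log scale) of the genes that are among the 100 most abundant and encode no cytosolic ribosomal protein, with the rank of each among all genes in parentheses. Circles are control replicate 1 and triangles control replicate 2, joined by a line. ACTB, MT2A and KRT17 lie farther left in replicate 2, while EEF1A1, TPT1 and EEF2 lie farther right.

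A few of the highest values lay almost wholly on 1 transcript of the gene that overlaps a small RNA gene. FAM83A had the highest mean of all genes, 13245 and 17736 TPM, but 99.1% and 99.5% of that lay on 1 non-coding transcript of 500 bases. It overlaps the small nucleolar RNA gene RF00012 by 184 bases, but on the opposite strand. The remaining transcripts of FAM83A added up to 120.1 and 87.8 TPM. Of WDR74, 7531 and 10011 TPM, 98.9% and 99.1% lay on a 548-base transcript that shares 191 bases with the small nuclear RNA gene RNU2-2P on the same strand, and the rest of the gene was at 80.5 and 87.5 TPM. PLCG2, at 1821 and 2367 TPM, rested on a transcript of 8707 bases, of which 318 are shared with a 7SK pseudogene on the same strand. The WDR74 and PLCG2 transcripts are of protein-coding type, and the files hold no read positions, so the part of these values that comes from the small RNA genes was not tested. Of the leading transcripts of the 100 most abundant genes, 4 overlapped a small RNA gene, 3 of them on the same strand, and 8 were not of protein-coding type. Among other named genes, protein-coding types held 55% and 59.1% of the level of MT2A, 46.9% and 56.1% of that of GNAS, 48.2% and 48.4% of that of IGF1R and 28.9% and 9.29% of that of ZEB1. NRSN1, a gene of neurons, was at 1677 and 1829.8 TPM without such an overlap. RPS18 was listed at 1009 and 1320.0 TPM, but 23 transcripts outside the annotation had the length and counts of its own transcripts, and with them it came to 5035 and 6591 TPM. The same holds for RPL7A, RPS25, MIF, CLIC1 and TUBB, whose sums here leave such copies out.

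Keratins showed which part of a large family these cells used. Of 55 keratin genes, 16 were expressed, 28 were silent and 19 had no counts at all. Together they took 1.78% and 1.27% of TPM. KRT81, a keratin described in hair, was the highest at 4873 and 3531 TPM. KRT6A, a keratin of wounded and fast-growing epithelium, was at 2119.6 and 1413 TPM, and its partner KRT16 at 83.7 and 67.6 TPM. KRT15, a basal keratin, was at 188 and 199.6 TPM, mostly on transcripts not of protein-coding type. KRT10, the partner of KRT1 in differentiated epidermis, was at 36.4 and 89.7 TPM, over 2-fold higher in replicate 2, while KRT1 had no counts. KRT20, of intestinal epithelium, had 0.5 and 1.5 counts. Type II keratins summed to 13004 and 9612 TPM and type I keratins to 4791 and 3109.7 TPM, a ratio of 2.71 and 3.09. KRT81 and KRT86, and KRT6A, KRT6B and KRT6C, are near-identical in sequence, so their separate levels are uncertain.

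In the type II cluster (chr12:52168996-52952901), 11 of 27 genes were expressed and 12 were silent, and the levels changed abruptly between neighbours. KRT5 adjoins KRT71, which had 2 and 0 counts, and KRT81 adjoins KRT83, at 10.7 and 7.92 TPM. The epidermal differentiation complex (chr1:151982915-153632039) showed the same contrast. Of its 62 genes, 19 were expressed and 31 silent. The S100A genes at its ends were expressed in 13 of 17 cases, with S100A14 at 1062 and 1251 TPM, S100A16 at 1233 and 1003 TPM and S100A10 at 1141 and 853 TPM. S100A9 and S100A8, which form calprotectin, were at 1240.1 and 684 TPM and 538 and 197 TPM, both higher in replicate 1. Of the 18 late cornified envelope (LCE) genes between them, 14 were silent and 13 had no counts. These genes are short, so no counts can still allow over 0.1 TPM, up to 0.892 and 0.93 TPM at 3 counts for LCE3A. LORICRIN, the main protein of the cornified layer, had no counts, IVL, involucrin, was at 2.23 and 1.11 TPM, and FLG, filaggrin, at 0.102 and 0.22 TPM. SPRR1B, a small proline-rich envelope precursor, was at 74.7 and 104 TPM, and TGM1, the transglutaminase that crosslinks the envelope, at 131 and 171 TPM.

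**Figure D4:**
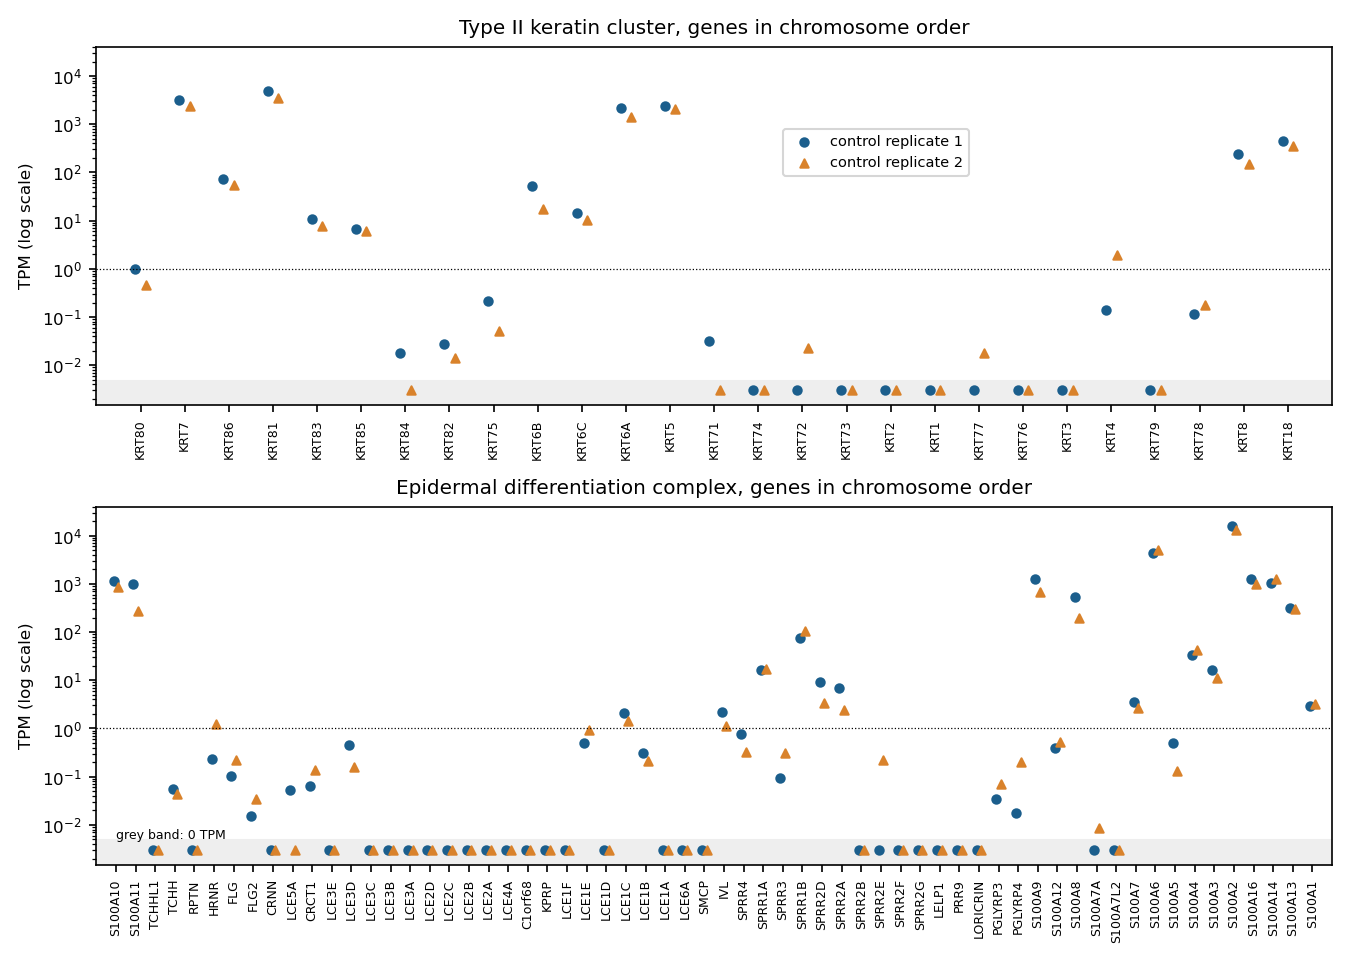
TPM (y axis, log scale) of protein-coding genes in the order in which they lie on the chromosome (x axis), for the type II keratin cluster (top) and the epidermal differentiation complex (bottom). Circles are control replicate 1, triangles control replicate 2, the dotted line 1 TPM, and points in the grey band stand at 0 TPM. The S100A genes lie at the ends of the lower panel, with the LCE genes mostly at 0 between them.

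Cell adhesion genes were next examined by junction type. All 6 hemidesmosome genes were expressed with means over 100 TPM, and none was over 2-fold apart. CD151, a tetraspanin that binds laminin receptors, was at 379 and 284 TPM. ITGA6, the partner of ITGB4, was at 238 and 219.7 TPM, and PLEC, the linker plectin, at 227 and 239 TPM. Of 14 desmosome genes, 10 (71.4%) were expressed, against 58.8% of all protein-coding genes. PERP, a p63 target in the desmosome, was at 271 and 355 TPM, and DSP, desmoplakin, at 130.4 and 175 TPM. The basal cadherins DSG3 and DSC3 were at 119 and 178 TPM and 46.1 and 54.4 TPM. These 4 were higher in replicate 2. DSG1 and DSC1, their partners in upper epidermal layers, had 0 and 0 and 2.03 and 4.58 counts. PKP3 and PKP2, plakophilins, were at 89.2 and 82.5 TPM and 31.3 and 29.2 TPM, while PKP1 was silent at 0.0653 and 0.0694 TPM. Of the adherens junction, CTNNA1 (α-catenin) was at 359.7 and 284 TPM and CTNNB1 (β-catenin) at 238 and 200 TPM. CDH2, N-cadherin, was at 5.32 and 1.81 TPM, over 2-fold higher in replicate 1, and CDH11 was at 0.18 and 0.131 TPM.

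Of 10 tight junction genes other than claudins, 8 were expressed and none was silent. F11R, the junctional adhesion molecule A, was at 118 and 115 TPM. OCLN, occludin, was at 21.2 and 16 TPM, and the scaffold gene TJP1 at 22.8 and 19.1 TPM. Claudins seal the tight junction, and of 24 genes 5 were expressed and 11 silent. CLDN7, at 232 and 189.8 TPM, held most of the sum. CLDN12 was next at 19.7 and 19.3 TPM, within the range of CLDN1, at 13.9 and 24.4 TPM, and CLDN4 was at 11.6 and 8.26 TPM. Connexins form gap junctions. Of 21 connexins, 7 were expressed, GJB5 among them at 61.3 and 59.1 TPM. GJA1, connexin 43, the most widespread connexin, was silent with 2 and 1 counts.

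Integrins were measured for 26 subunits, of which 15 (57.7%) were expressed and 2 (7.69%) silent. Of all protein-coding genes, 58.8% were expressed and 22.6% silent. ITGB1, the common β subunit, was at 619 and 544 TPM. ITGA3, a laminin receptor subunit, was at 271 and 172 TPM, and ITGA5, of the fibronectin receptor, at 123 and 71 TPM. ITGB6, whose integrin activates latent TGF-β, was at 56 and 28.6 TPM. All 4 were higher in replicate 1.

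Matrix genes differed widely between the libraries. Of 16 basement membrane and matrix genes, 12 were expressed, and their sum was 2796 and 1055 TPM. TGFBI, a matrix protein induced by TGF-β, was at 2025 and 622 TPM, and THBS1, thrombospondin, at 350 and 96.9 TPM. FN1, fibronectin, was at 76.6 and 22.1 TPM, and TNC, tenascin, at 15.8 and 2.24 TPM. Each of these was over 2-fold higher in replicate 1, and the other 8 expressed genes of the list were not over 2-fold apart. COL4A5 and COL4A6, neighbours that encode chains of collagen IV, were at 46.7 and 56.7 TPM and 33.3 and 33 TPM, and the linker genes NID1 and NID2 at 0.0178 and 0.0618 TPM and 0.323 and 0.285 TPM.

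Transcript groups showed which start sites were in use. Of the TPM of TP63, 99.6% and 97.8% lay on the 8 transcripts that begin at the internal start (chr3:189789660 to 189789801), which yields ΔNp63, the form without the full activation domain. The 6 transcripts of the upstream start (TAp63) held 5.57 and 74 counts. The longest coding ΔN transcript, TP63-203, was at 17.4 and 20.5 TPM. Of the TPM of LAMA3, 91.3% and 89.4% lay on the 2 coding transcripts of the internal start, which encode the short α3A chain of laminin-332. The 3 transcripts of the upstream start, for the long α3B chain, were at 6.28 and 6.45 TPM. For CD44, the hyaluronan receptor, transcripts with at least 800 and under 1100 coding bases, the standard form included, held 48.1% and 38.4% of TPM, those with 1100 or more held 27.1% and 33.1%, and the remainder lay on transcripts that code for less or for nothing. ITGA6 was divided almost evenly between ITGA6-202, at 112.4 and 105.8 TPM, and ITGA6-201, at 113 and 99.7 TPM, which differ at the cytoplasmic end. These shares rest on kallisto's division of shared reads among transcripts.

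Of 58 receptor tyrosine kinase genes, 27 (46.6%) were expressed and 15 (25.9%) silent, near the 58.8% and 22.6% of all protein-coding genes. None reached a mean of 100 TPM. EPHA2, an ephrin receptor, was highest at 79.6 and 76.4 TPM. These levels leave out equal copies of transcripts outside the annotation. With such copies the mean sum of the family rose from 642 to 661 TPM, so some members are listed too low. MET, the HGF receptor, was at 70.1 and 63.2 TPM, and RYK, a Wnt co-receptor, at 66.7 and 65.9 TPM. The ranges of EPHA2 and MET did not overlap, whereas the values of RYK lay within the range of MET. ERBB2 was at 24.4 and 30.6 TPM and ERBB3 at 6.21 and 8.11 TPM. ROS1, a kinase best known from gene fusions in lung cancer, was at 40.8 and 37.1 TPM. FGFR3 was at 14.2 and 39.1 TPM and AXL at 26.8 and 12.2 TPM, both over 2-fold apart but in opposite directions.

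Genes on the lists of pathways fed by the medium were mostly expressed, as were 58.8% of all protein-coding genes. The lists were drawn up with earlier results of these data known, so this is a description, and an effect of the additives was not tested. All 21 genes of the EGF list were expressed. SHC1, an adaptor of the receptor, was at 457 and 473 TPM. The kinase gene MAP2K2 was at 128 and 152 TPM, and the feedback phosphatase DUSP6 at 75.5 and 47.5 TPM. For insulin, 15 of 17 genes (88.2%) were expressed: the receptor gene INSR was at 5.17 and 6.51 TPM and the related IGF1R at 12.7 and 17.2 TPM. IGFBP6, an IGF-binding protein, was at 187 and 308 TPM, and AKT1, a kinase below the receptor, at 129 and 95.4 TPM.

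For hydrocortisone, 12 of 14 genes (85.7%) were expressed. NR3C1, the glucocorticoid receptor, was at 48.8 and 56 TPM. Its textbook target FKBP5 was at 180.1 and 177 TPM, about equal in the libraries. TSC22D3 (GILZ), another, was at 64.9 and 143 TPM, over 2-fold higher in replicate 2, and SGK1 was at 38.4 and 59.4 TPM. NR3C2, the mineralocorticoid receptor, was at 0.454 and 0.853 TPM. For cholera toxin and cAMP, 16 of 25 genes (64%) were expressed, close to the 58.8% of all protein-coding genes, and 2 were silent. GNAS, which encodes the toxin's substrate Gsα, was at 488 and 387 TPM. PRKAR1A, a regulatory subunit of protein kinase A, was at 143 and 139 TPM, and the adenylyl cyclase gene ADCY3 at 64.7 and 49.3 TPM.

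Other receptors covered cytokines more widely than hormones and amines. Of 37 cytokine and death receptors, 28 (75.7%) were expressed, against 58.8% of all protein-coding genes. TNFRSF12A, the TWEAK receptor, led at 291 and 211 TPM. LTBR, the lymphotoxin receptor, was at 174 and 186 TPM and IL20RB, of the IL-20 receptor, at 159 and 181 TPM. IFNGR1, of the interferon-γ receptor, was at 104 and 190.2 TPM, higher in replicate 2. Of 14 receptors of the TGF-β superfamily, 11 (78.6%) were expressed. TGFBR2 was at 84.2 and 47.3 TPM and TGFBR1 at 22.3 and 15.4 TPM, both higher in replicate 1. Of 19 Notch and Wnt receptors, 14 were expressed, led by FZD6 at 84.8 and 50.9 TPM and NOTCH2 at 34.8 and 27.6 TPM.

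Of 53 G-protein-coupled receptors for hormones and amines, 3 were expressed. Among them, HTR7, a serotonin receptor, was at 7.08 and 4.86 TPM, and HRH1, a histamine receptor, at 4.92 and 3.26 TPM. Of 35 receptors of this class described in epithelia, 19 (54.3%) were expressed, close to the 58.8% of all protein-coding genes. GPRC5A led them at 133 and 93.4 TPM. Of 48 nuclear receptors, 21 (43.8%) were expressed, led by ESRRA at 75.3 and 94.7 TPM and NR1H2 (LXRβ) at 57.7 and 57 TPM.

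Secreted factors included the cells' own EGF receptor ligands. AREG, amphiregulin, was at 604 and 311 TPM, and EPGN, epigen, at 147 and 183 TPM, and these 2 held 89.7% and 90.1% of the sum over 11 ligands. EGF itself was at 0.141 and 0.145 TPM, and TGFA at 38.3 and 21.6 TPM. Of 16 TGF-β and BMP ligands, 7 (43.8%) were expressed, TGFB1 at 7.4 and 7.64 TPM and TGFB2 at 12.2 and 5.17 TPM. Of 29 cytokines and chemokines, 18 (62.1%) were expressed, close to the 58.8% of all protein-coding genes. IL18, of the IL-1 family, was at 269 and 376 TPM, higher in replicate 2. CSF3, which encodes G-CSF, was at 186 and 93.1 TPM and IL1A, a stored alarm cytokine, at 128 and 97.9 TPM. CXCL1, a neutrophil attractant, was at 102 and 56.2 TPM. The last 3 were higher in replicate 1.

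Of 30 proteases and inhibitors, 24 were expressed, with SERPINB5 (maspin) at 453 and 359 TPM. PLAU, urokinase, was at 87 and 37.6 TPM, over 2-fold higher in replicate 1.

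Transcription factors were surveyed in 18 families with 360 genes. Of these, 179 (49.7%) were expressed and 119 (33.1%) silent, against 58.8% and 22.6% of all protein-coding genes, and the median of the mean levels was 1.21 TPM against 4.54. Only 6 had a mean of 100 TPM or more. ID1 and ID3, which bind and block basic helix-loop-helix factors, were at 430.3 and 666 TPM and 139 and 166 TPM. ATF4, of the amino acid stress response, was at 369.9 and 491 TPM, and MYC, the growth regulator, at 257 and 306 TPM. KLF5, of proliferating epithelium, was at 96.4 and 141 TPM. All of these were higher in replicate 2.

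The families differed in how many members were in use. All 5 NF-κB genes, 14 of 16 IRF and STAT genes, 10 of 12 genes of the MYC network and 20 of 28 ETS genes were expressed. NFKB1 was at 36.4 and 41.4 TPM and STAT6, the factor of IL-4 signalling, at 84.7 and 78.2 TPM. ETS2 was at 56.9 and 89.3 TPM and EHF, an epithelial ETS factor, at 54.4 and 58 TPM. MYCN had no counts. Of 20 SOX genes, 6 were expressed and 12 silent, with SOX15 first at 18.7 and 19.4 TPM and SOX9 at 2.67 and 2.22 TPM, and of 9 PAX genes only PAX9 was, at 3.46 and 4.45 TPM. Of 51 FOX genes, 19 were expressed and 25 silent. TP73, a relative of TP63, was at 0.328 and 0.492 TPM. The TEAD factors TEAD1 and TEAD4 were at 29.7 and 26.3 TPM and 21.5 and 25.6 TPM, and their co-activators YAP1 and WWTR1 (TAZ) at 64.7 and 40.3 TPM and 24.9 and 16.7 TPM.

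HOX genes, which mark position along the body axis, were used by cluster. In the HOXA cluster (chr7:27092993-27200106), 8 of 12 protein-coding genes were expressed. HOXA5 was at 19.5 and 42.1 TPM, over 2-fold higher in replicate 2. HOXA9 was at 9.26 and 11.7 TPM and HOXA10 at 8.86 and 10.8 TPM. In the HOXC cluster (chr12:53938765-54056030), 5 of 10 were, led by HOXC9 at 6.99 and 6.74 TPM. In the HOXB cluster (chr17:48528526-48729178), none of 12 genes reached 1 TPM in both libraries, HOXB2 being nearest at 1.68 and 0.905 TPM. In the HOXD cluster (chr2:176092891-176190907), all 10 genes were silent, and 9 of them had no counts. HOXD11 had 1 and 0 counts.

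Epithelial and mesenchymal regulators were present side by side. Of 14 epithelial transcription factor and splicing genes, 13 were expressed, with ESRP2 and ESRP1, splicing factors of the epithelial programme, at 24.9 and 25.6 TPM and 4.87 and 18.4 TPM, ESRP1 over 2-fold higher in replicate 2. The exception was GRHL2, a regulator of E-cadherin and claudin genes, at 0.272 and 0.294 TPM, from 11.1 and 10.7 counts, while its relatives GRHL3 and GRHL1 were at 9.24 and 8.58 TPM and 2.28 and 1.36 TPM. Of 21 mesenchymal genes, 16 (76.2%) were expressed, against 58.8% of all protein-coding genes. VIM, vimentin, was at 557 and 455 TPM. SNAI2 (Slug), a repressor of E-cadherin that basal cells also express, was at 44 and 30.2 TPM. TWIST1 and TWIST2 were at 17.4 and 13.9 TPM and 18.9 and 21.8 TPM, and ZEB1 was at 1.9 and 1.84 TPM. The sum of the mesenchymal list was 3051 and 1256 TPM, most of it TGFBI and VIM.

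Proliferation genes were expressed without exception, at different sums. All 27 reached 1 TPM in both libraries, and their sum was 2921 and 1867 TPM. PCNA, the replication clamp, was at 350 and 213 TPM. CCNB1, cyclin B1, was at 358 and 191 TPM, and its kinase CDK1 at 189 and 89.9 TPM. CCND1, cyclin D1, was at 133 and 164 TPM. Thus PCNA, CCNB1 and CDK1 were higher in replicate 1 and CCND1 in replicate 2. Replication-dependent histone genes, whose mRNAs end in a stem-loop in place of a poly(A) tail, took 3.4% and 2.07% of TPM, with 64 of 70 expressed. H4C11 led them at 2399.7 and 1654 TPM, and the separate copies of each histone are uncertain, since their sequences are near-identical.

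Of the brakes on the cell cycle, CDKN1A (p21) was at 119.7 and 108 TPM and CDKN1B (p27) at 20.2 and 23 TPM. RB1, the retinoblastoma gene, was at 24.9 and 18.7 TPM. MDM2, a ubiquitin ligase and not itself such a brake, was at 167 and 186 TPM. CDKN1C (p57) was at 15.2 and 53.1 TPM, over 2-fold higher in replicate 2. CDKN2A and CDKN2B, inhibitors of cyclin D kinases that lie side by side on chromosome 9, had no counts in either library, which allows up to 0.18 TPM for CDKN2A and 0.12 TPM for CDKN2B at 3 counts. Their neighbours were also low: MTAP, of methionine salvage, was at 0.386 and 0.603 TPM, and DMRTA1 at 0.138 and 0.187 TPM. Whether the DNA of this region is intact in these cells was not tested. From IFNB1 to ELAVL2 (chr9:21077105-23826337), 17 of 23 protein-coding genes were silent, most of them interferon genes, and 2 were expressed, KLHL9 at 6.58 and 6.18 TPM and ELAVL2, an RNA-binding protein of neurons, at 10.2 and 6.44 TPM.

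Silent protein-coding genes were not spread evenly over the chromosomes. Of 379 olfactory receptor genes, 369 were silent, as were 93 of 94 keratin-associated protein genes, 35 of 39 β-defensins and 16 of 20 interferon genes. For short genes such as KRTAP1-4, no counts still allow up to 0.422 and 0.448 TPM at 3 counts, above the limit for silent. Genes in chromosome order formed 31 runs of 10 or more silent neighbours, which held 556 of the 4386 silent genes on the autosomes and the X chromosome. The longest, 52 genes from OR4C13 to APLNR (chr11:49952391-57237314), held 48 olfactory receptors, and the next, 38 genes from KRT39 to KRT33B (chr17:40958417-41369800), held 34 keratin-associated proteins and 4 keratins. Of 34 MAGE genes, 24 were silent, and the 3 expressed were MAGED2 at 58.4 and 57.6 TPM, MAGED1 at 47.8 and 41.5 TPM and MAGEF1 at 18.2 and 17 TPM, which unlike the MAGEA genes are active in many tissues.

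Nutrient uptake genes were mixed. Of 18 amino acid transporters, 13 (72.2%) were expressed, against 58.8% of all protein-coding genes. SLC3A2 and SLC7A5, which pair as the carrier of large neutral amino acids, were at 513 and 282 TPM and 419.9 and 199 TPM, SLC7A5 over 2-fold higher in replicate 1. SLC1A5, of glutamine uptake, was at 114 and 114 TPM. Of 14 glucose transporters, 6 were expressed. SLC2A1 (GLUT1) was at 79.8 and 67.5 TPM, though most of this lay on transcripts not of protein-coding type, and SLC2A9 was at 29.9 and 31.6 TPM. Of 21 genes of glycolysis, 19 were expressed, with LDHA and LDHB at 1237 and 889 TPM and 1145 and 1165 TPM. Of 21 iron and redox genes, all were expressed, none over 2-fold apart, with NQO1 at 470.4 and 569 TPM and TFRC, the transferrin receptor, at 168 and 196 TPM.

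Promoter sequence was set beside the level of each gene. Vertebrate promoters fall broadly into those rich in CpG dinucleotides and those poor in them. For 15173 of 19629 nuclear protein-coding genes, RefSeq's table on GRCh38.p14 gave a window of 300 bases, 250 before and 50 after the start site. Silent genes had a median of 6 CpG per window (quartiles 2 and 19), and genes neither silent nor expressed a median of 13. Genes expressed with a mean of 10 to 100 TPM had a median of 27 (quartiles 20 and 35), and those at 1000 TPM or more a median of 25 (quartiles 17 and 31). The quartile ranges of silent genes and of genes at 10 to 100 TPM did not overlap, and the median did not rise further with level. Among the 103 genes at 1000 TPM or more, 10 had a window with 10 or fewer CpG. These were S100A2, RPL6, RPS27A, KRT5, PLCG2, ALDOA, NME2, S100A14, S100A16 and PPEF2. For 6 of the 10 the window's start lay over 500 bases from that of the leading transcript, at a distance of 40217 bases for PLCG2, 4983 for ALDOA, 2046 for S100A2, 1801 for RPL6, 775 for RPS27A and 742 for NME2, so these windows may not be the promoters in use. For KRT5 the distance was 293 bases, and for S100A14, S100A16 and PPEF2 it was 7, 54 and 29. PPEF2, however, was at 979 and 1026 TPM with 0% of this on transcripts of protein-coding type in either library. Only 34 of the 55 keratin genes had a window, and only 4 of the 16 expressed ones. All 34 keratin windows held 8 or fewer CpG, whether the gene was expressed (4 windows, median 4.5) or not (30 windows, median 2). The promoters of the other expressed keratins were not measured. The letters TATAAA, searched on both strands, occurred in 19.7% of silent genes' windows, 4.35% of those at 10 to 100 TPM and 11.7% of those at 1000 TPM or more, against 9.49% of all windows. GGGCGG, likewise on both strands, occurred in 33.7%, 72.7% and 64.1%, against 59.5% of all. The motifs do not overlap in their letters, and GGGCGG itself contains a CpG. For 79.2% of the expressed genes the window's start lay within 500 bases of the start of the leading transcript, and within that set the median was also 27 CpG.

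**Figure D5:**
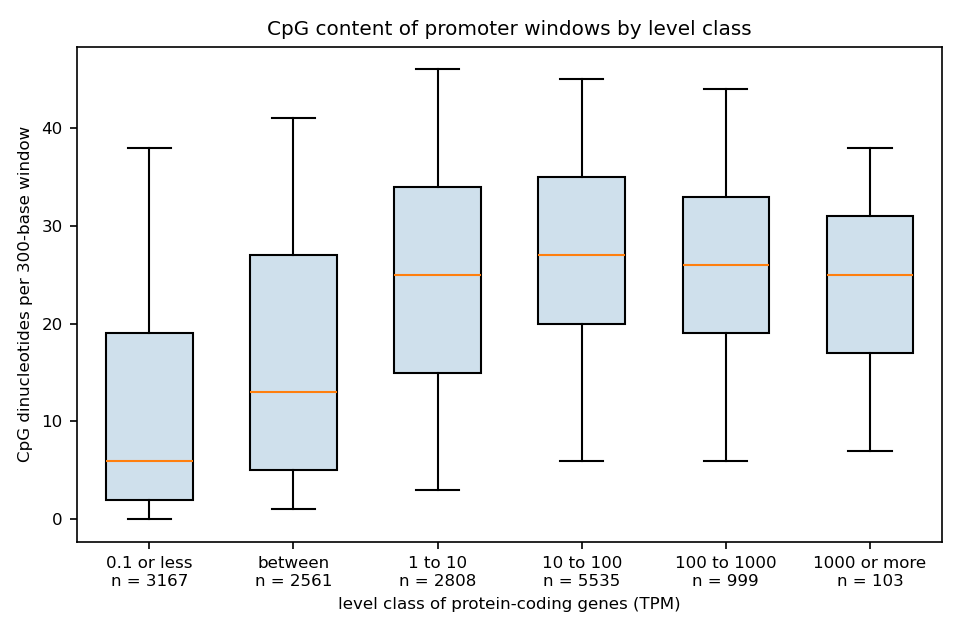
CpG dinucleotides in 300-base promoter windows (y axis) of protein-coding genes by level class in TPM (x axis), with the number of genes under each class. Boxes span the quartiles with the median as a line, and whiskers run from the 5th to the 95th percentile. The median is 6 in silent genes, 13 in the class between, and 25 to 27 in the 4 expressed classes.

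The printed windows were chosen to show cases on both sides of that contrast. The first 3 belong to epithelial genes that were expressed strongly with few CpG, the fourth to an abundant gene rich in CpG, and the last 2 to genes without counts, 1 of them rich and 1 poor in CpG. Each is written 5′ to 3′ on the strand of the gene, and capitals mark every CG. LAMB3 (chr1:209652376-209652675, minus strand) had 10 CG, SFN (chr1:26862899-26863198, plus strand) 7, S100A9 (chr1:153357604-153357903, plus strand) 5, TMSB10 (chr2:84905406-84905705, plus strand) 35, CDKN2A (chr9:21995275-21995574, minus strand) 28 and OR4C13 (chr11:49952141-49952440, plus strand) 1.
LAMB3: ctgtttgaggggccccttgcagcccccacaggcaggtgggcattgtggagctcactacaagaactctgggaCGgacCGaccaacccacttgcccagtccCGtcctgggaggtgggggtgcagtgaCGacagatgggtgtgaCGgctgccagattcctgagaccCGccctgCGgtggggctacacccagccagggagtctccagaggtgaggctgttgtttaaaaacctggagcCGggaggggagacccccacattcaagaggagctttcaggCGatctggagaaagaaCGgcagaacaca
SFN: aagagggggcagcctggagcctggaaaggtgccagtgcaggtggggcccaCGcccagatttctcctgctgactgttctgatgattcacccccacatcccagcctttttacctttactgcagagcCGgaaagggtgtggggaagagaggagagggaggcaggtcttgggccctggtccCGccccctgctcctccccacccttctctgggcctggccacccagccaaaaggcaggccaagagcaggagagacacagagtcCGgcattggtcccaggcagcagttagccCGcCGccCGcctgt
S100A9: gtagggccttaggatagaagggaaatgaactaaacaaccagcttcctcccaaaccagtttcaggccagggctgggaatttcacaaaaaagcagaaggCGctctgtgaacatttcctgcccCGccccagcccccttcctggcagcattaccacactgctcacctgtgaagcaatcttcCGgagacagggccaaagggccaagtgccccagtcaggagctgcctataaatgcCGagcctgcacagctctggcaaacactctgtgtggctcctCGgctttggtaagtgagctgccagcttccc
TMSB10: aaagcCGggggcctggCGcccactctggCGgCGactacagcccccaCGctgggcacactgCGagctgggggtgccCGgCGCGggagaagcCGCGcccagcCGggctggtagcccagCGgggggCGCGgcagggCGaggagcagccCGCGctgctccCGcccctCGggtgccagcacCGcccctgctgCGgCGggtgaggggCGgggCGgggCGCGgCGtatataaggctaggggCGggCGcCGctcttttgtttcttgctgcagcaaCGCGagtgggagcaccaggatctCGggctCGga
CDKN2A: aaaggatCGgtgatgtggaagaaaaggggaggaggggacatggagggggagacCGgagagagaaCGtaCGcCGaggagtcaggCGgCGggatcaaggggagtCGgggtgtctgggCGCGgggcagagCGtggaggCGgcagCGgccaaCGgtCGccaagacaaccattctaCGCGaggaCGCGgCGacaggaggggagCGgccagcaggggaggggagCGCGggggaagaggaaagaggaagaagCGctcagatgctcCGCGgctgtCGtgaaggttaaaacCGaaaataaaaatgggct
OR4C13: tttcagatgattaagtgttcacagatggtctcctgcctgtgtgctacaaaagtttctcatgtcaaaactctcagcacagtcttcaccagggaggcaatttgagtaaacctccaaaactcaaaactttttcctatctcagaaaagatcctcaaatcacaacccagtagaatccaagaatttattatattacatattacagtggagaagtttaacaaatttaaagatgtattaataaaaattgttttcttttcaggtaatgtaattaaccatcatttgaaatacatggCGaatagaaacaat

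Against these sequences stand the levels already given: 781 and 348 TPM for LAMB3, 584 and 429.8 TPM for SFN, 1240.1 and 684 TPM for S100A9 and 8908 and 8121 TPM for TMSB10. CDKN2A, with 28 CG, and OR4C13, with 1, were both without counts. Counts of RNA do not show whether the DNA of a gene is present in the cells, and for CDKN2A this was not tested. For LAMB3, SFN, S100A9 and TMSB10 the window's start lay 0 to 41 bases from that of the leading transcript. A gene without counts has no leading transcript, and for CDKN2A another annotated start lies 20226 bases from that of the window. Of 1928 genes with a window and no counts, 253 (13.1%) had 25 or more CpG, so a CpG-rich window was found in genes with and without transcripts.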

How the data were processed

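RNA of the 2 control libraries had been depleted of ribosomal RNA, made into stranded libraries and read as 50-bp paired ends, per the labels' protocols. Per the submitters' processing notes, the authors used kallisto and the build GRCh38. Which kallisto version, transcript release and strand setting they chose is not given in the sources used here. Each deposited table holds estimated counts per transcript, which divide shared reads among transcripts, and TPM, which corrects them for effective length and sums to 1000000 in each library, per the file headers and values.

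TPM and estimated counts were summed per gene after transcripts were matched by identifier without version to GENCODE release 29 on GRCh38. Of 173259 transcripts, 159239 (91.9%) matched, in 34500 genes. Current symbols were found by gene identifier for 34320 genes. The matching, the sums and the summaries were made with Python 3.11.15, pandas 2.3.3 and numpy 2.4.6, and the summaries were tested on simulated data. The total of estimated counts per library, 40792300 and 36693330, makes a single count worth a small part of 1 TPM for most genes. The upper limit for a gene without counts is the TPM of 3 counts at the median effective length of its transcripts, and it covers counting error only.

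No test was made, since 1 group was described. The labels number the control libraries as replicates and call the TGF-β1 samples biological duplicates. How far the spread between the control libraries is technical was not tested. Members were compared by their values in both libraries and, where given, by mean and SD. The members and the 77 gene lists were chosen with earlier results of these data known. Named genes are the 8 markers, the 30 most abundant genes, the 4 highest members of a list, members that define a list by textbook knowledge, and silent members. Further genes, such as AXL, FGFR3, ROS1, CDH2, CDH11, NRSN1, PLCG2, PHF8, ELAVL2 and those of the printed promoters, were singled out after their values were seen. Promoter windows are RefSeq's on GRCh38.p14. Alternatives were other thresholds, rescaling, CPM, protein-coding genes, and each library left out. Some named genes are not reported here.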

Additional observations from a re-analysis of the deposited data

Results flagged for a closer look

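A signal lay outside the genes described above. Transcripts that matched no gene of the annotation held 3.89% of TPM in control replicate 1 and 4.02% in control replicate 2. The most abundant of them, whose gene is not named in the sources used here, stood at 11180 and 10822 TPM, so that 3 genes lay above it in each library. Of the 1659 unmatched transcripts with 10 or more counts in both libraries, 704 had the same length and, to 6 significant digits, the same counts as a matched transcript of 1 gene, and these held 1.13% and 1.26% of TPM.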

How the results depend on the processing

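The count of 12107 expressed genes stayed within 1.5 times under each alternative run, from 11054 (transcripts of protein-coding type only, chosen after seeing the data) to 13131 (0.5 TPM in place of 1). It was 12692 without control replicate 1 and 12442 without control replicate 2. Genes without counts numbered 2720 when only protein-coding genes were kept, in place of 12536, since fewer genes were counted, and 13835 to 14612 with 1 library left out. The 10 most abundant genes held a mean of 9.6% of TPM. This moved to 12.3% without mitochondrially encoded and ribosomal protein genes, to 7.46% in CPM and to 8.18% with transcripts of protein-coding type only, and was 8.72% to 10.5% with 1 library left out. The share of the 100 most abundant, 36.3%, moved to 30.03%, 22.8% and 31.2% under the same alternatives, and was 34.2% to 38.5% with 1 library left out. Of 77 list sums, 53 differed from the TPM sum by over 1.5 times in CPM, which is not corrected for length, and none of the 76 left did after rescaling to nuclear protein-coding genes. With transcripts of protein-coding type only, 6 sums fell by over 1.5 times, that of the glucose transporters from 123.5 to 42.2 TPM and that of the classical cadherins from 342 to 194 TPM. Leaving out control replicate 1 moved the matrix sum from 1926 to 1055 TPM and the mesenchymal sum from 2154 to 1256 TPM. No paired analysis was possible because only 1 group was described. With 2 libraries the spread of a single gene is poorly known, and values that rest on a few counts give no more than an upper range.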

Other observations

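Some gene groups outside the sections above were expressed almost as a whole. Of 25 chaperone genes, 23 were expressed, and HSPA8, the constitutive heat shock protein, was at 3215 and 2255 TPM, higher in replicate 1. PPIA, cyclophilin A, was at 3062 and 3226 TPM. Of 12 annexins, 10 were expressed: ANXA1, the target of glucocorticoid action in inflammation, was at 532 and 689.8 TPM, and ANXA8 at 269 and 274 TPM. LGALS1, galectin-1, was at 2203 and 2256 TPM.

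Other families were nearly off or thinly spread. Of 53 clustered protocadherins, 5 were expressed, 13 were silent and 35 lay between, with PCDHGC3 highest at 7.87 and 5.15 TPM. Of 27 taste receptors, none was expressed and 18 were silent. Of 24 globins and crystallins, CRYAB alone, a small heat shock protein, was expressed, at 2.7 and 1.6 TPM.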
